A study of Homo sapiens with 6 samples.

Results

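The SR splicing factor family was followed in ribosome footprint libraries of RKO, a line of human colorectal cancer cells. The 10 members are SRSF1, SRSF2, SRSF3, SRSF4, SRSF5, SRSF6, SRSF7, SRSF9, SRSF10 and SRSF11, taken by gene symbol from 20289 genes in the deposited table, and all 10 were found. The family was chosen by its footprint levels (FPKM) in these same shTRMT6 and shControl libraries, so the levels and fold changes of its members are a description. Where a member is said to be called, this places it in the fit over all genes and is no evidence about the member, and no p-value is given for it. Cells with a short hairpin RNA against TRMT6 (shTRMT6, 3 libraries) were set against cells with a control hairpin (shControl, 3 libraries). TRMT6 is a subunit of the tRNA methyltransferase that places m1A in tRNA, and no label names the vector, the number of hairpin sequences or whether the cells were a pool or a clone. Both groups share the RKO background and the hairpin procedure, and the labels give no time after the hairpin.

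SR proteins bind exons through RNA recognition motifs and recruit the splicing machinery through a domain rich in alternating arginine and serine, the RS domain. Phosphorylation of that domain by SRPK kinases in the cytoplasm and CLK kinases in the nucleus sets where the proteins sit and when they act. SR genes are also known for control of their own amount: an SR protein can favour inclusion of an exon with an early stop codon, or retention of an intron, in its own transcript or in that of another member, and such transcripts are degraded by nonsense-mediated decay or kept in the nucleus. A gene-level footprint value adds all transcripts of the gene and does not separate these forms.

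The RS domain is visible in the coding sequence over which ribosomes were profiled. For the 3 members with the largest increases and the 2 with the largest decreases, the stretch of 30 codons richest in neighbouring arginine and serine codons is shown, from GENCODE 29 transcripts on GRCh38, coding strand, with arginine codons in capitals.
SRSF5: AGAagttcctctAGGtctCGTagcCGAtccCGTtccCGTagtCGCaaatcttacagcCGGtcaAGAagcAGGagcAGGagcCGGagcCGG
SRSF6: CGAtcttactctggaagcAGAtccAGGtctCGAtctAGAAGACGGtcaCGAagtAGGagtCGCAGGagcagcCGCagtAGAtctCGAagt
SRSF10: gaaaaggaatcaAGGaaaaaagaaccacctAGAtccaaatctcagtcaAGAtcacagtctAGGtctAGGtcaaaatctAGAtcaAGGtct
SRSF2: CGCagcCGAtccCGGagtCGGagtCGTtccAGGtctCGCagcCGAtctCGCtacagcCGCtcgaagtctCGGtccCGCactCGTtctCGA
SRSF3: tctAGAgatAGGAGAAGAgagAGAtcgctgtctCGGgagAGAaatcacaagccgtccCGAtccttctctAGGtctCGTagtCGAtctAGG
These stretches lie at chr14:69771225-69771314 on the plus strand in exon 8 of 8 for SRSF5, and at chr20:43460216-43460578 on the plus strand across exons 4 and 5 of 6 for SRSF6. That of SRSF10 lies at chr1:23971172-23971261 on the minus strand in exon 6 of 6, that of SRSF2 at chr17:76736359-76736448 on the minus strand in exon 2 of 3, and that of SRSF3 at chr6:36601715-36601971 on the plus strand across exons 5 and 6 of 6. The SRSF2 stretch had 14 arginine codons, 13 of them of the CGN type and 0 AGA. The SRSF10 stretch had 7 arginine codons, 3 AGA and 0 CGN, and the SRSF3 stretch had 12, with 5 AGA and 4 CGN. Over the whole coding sequence, arginine made up 12.8% to 24.4% of codons in the 10 members, against a median of 5.63% over 11410 tested genes with a coding sequence. Neighbouring arginine and serine codons numbered 4.07 per 100 codons in SRSF9 and 23.5 in SRSF2, against a median of 0.765 over those genes. AGA made up 3.77% of the arginine codons of SRSF2 and 32.5% of those of SRSF3, which were both lower in shTRMT6. It made up 30.4% in SRSF5, 21.7% in SRSF6 and 41.2% in SRSF10, which were all higher. In the other members AGA made up 16.7% in SRSF9, 20.9% in SRSF1, 21.6% in SRSF4, 37.9% in SRSF7 and 43.5% in SRSF11. The median over tested genes with a coding sequence was 19.2%, and a link of AGA share with direction was not tested.

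The annotation places the genes apart, on chromosomes 1, 2, 6, 12, 14, 17 and 20, with SRSF4, SRSF10 and SRSF11 on chromosome 1 and SRSF1 and SRSF2 on chromosome 17. Coding lengths ran from 492 nt for SRSF3 to 1482 nt for SRSF4, with a median of 765 nt against 1368 nt over tested genes. All 10 members had at least 1 transcript annotated as a target of nonsense-mediated decay (1 to 6, the most for SRSF7), a feature of 44.8% of tested genes. Retained-intron transcripts were annotated for 8 of the 10, with 8 of them in SRSF5, against 57.9% of tested genes with at least 1.

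The libraries differed in ways that touch the results. The FPKM sums were 1531873 to 1582826 in shTRMT6 and 1463344 to 1760307 in shControl, and the steps between low values gave about 2577320 to 4065041 reads per shTRMT6 library and 2610966 to 3898635 per shControl library. At that depth the member value with the fewest reads, SRSF4 in shControl replicate 2, rests on about 178, and the other members on about 207 or more in every library, so counting error is small beside the spread between libraries. Pearson's r across tested genes was 0.936 to 0.964 between shControl libraries. With the shTRMT6 libraries it was 0.909 to 0.923 for shControl replicate 2 and 0.865 to 0.872 for shControl replicate 3. Whether replicates were separate cultures is not labelled, so every error and p-value covers only how these libraries spread, which may be technical. Of 8 colon epithelium markers, KRT8, KRT18, EPCAM and CDX2 were tested and not called, CDH1 and VIL1 were listed at 0 in every library, and KRT19 and KRT20 reached at most 1.52 and 0.57 FPKM. The fibroblast and endothelial markers summed to at most 2.82 and 0.54 FPKM in any library, and PTPRC and CD3E were listed at 0, while the lysosomal gene CD68 had 575 to 754 FPKM in shTRMT6 and 559 to 740 FPKM in shControl.

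TRMT6 was lower in the knockdown, at 20.7, 21.9 and 24.1 FPKM in shTRMT6, against 57.6, 58.4 and 95.3 FPKM in shControl (log2 fold change -1.58, SE 0.27, limma adjusted p = 0.00301). FPKM is a level per length of the gene and scaled to the reads of the library, and log2 fold changes are of FPKM + 1, shTRMT6 minus shControl. Over the 11566 tested genes the log2 fold change had a median of 0.39 (-0.07 with each library scaled to its median), so a gene at 0 lay below the middle of the genes.

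Among the SR genes, SRSF6, SRSF10 and SRSF5 were 3.69-fold, 3.02-fold and 2.85-fold higher in shTRMT6 than in shControl by their mean FPKM, SRSF3 and SRSF2 were 2.21-fold and 1.75-fold lower, and SRSF1, SRSF7 and SRSF9 had overlapping groups. Across the family 4 members were called higher and 2 lower (limma, adjusted p under 0.05 over all genes), where 26.5% of all tested genes were called higher and 9.04% lower. The groups did not overlap for 7 of the 10, 5 with shTRMT6 higher and 2 with shTRMT6 lower, against 51.4% of tested genes in either direction, 37.0% higher and 14.3% lower. Since the contrast was known when the family was picked, nothing is read from these counts. The median log2 fold change of the members was 0.31, within a range of -1.14 to 1.91. In lysates of whole cultures a change in all cells and a change in the share of cells in some state cannot be told apart, and neither can mRNA amount and ribosomes per mRNA.

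**Figure D1:**
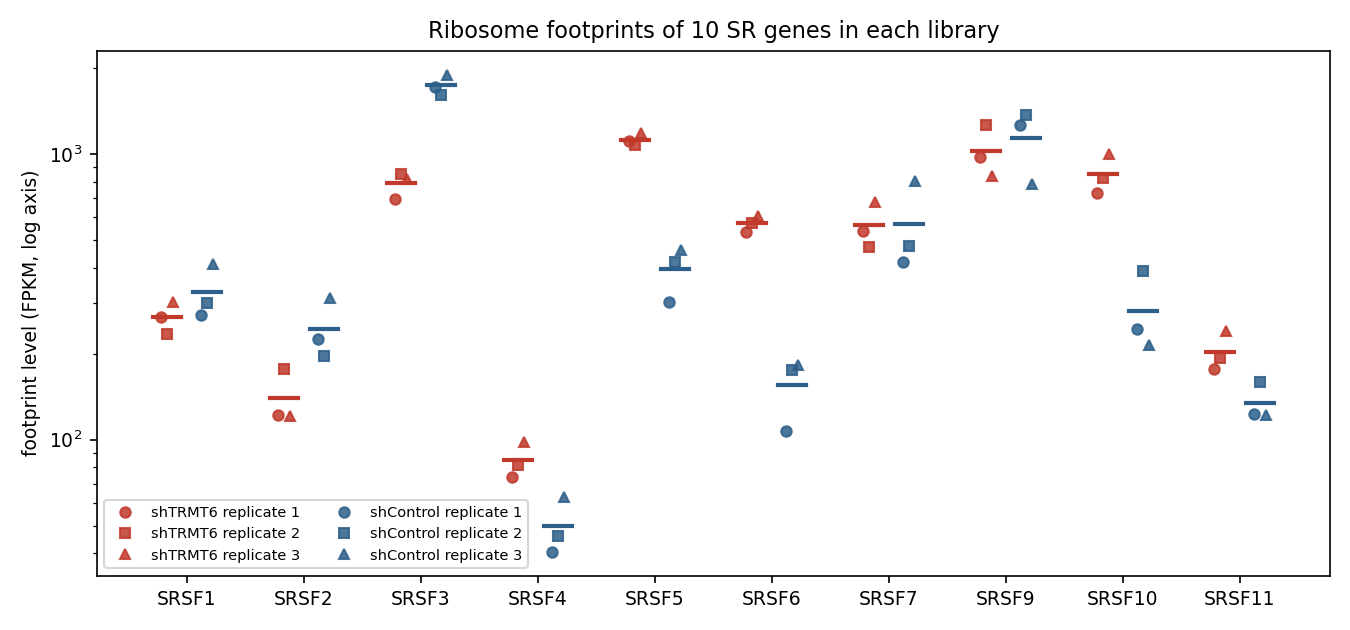
Footprint level (FPKM, log axis) of each SR gene in the 3 shTRMT6 libraries (red, left) and the 3 shControl libraries (blue, right), with bars at the group means and symbols by replicate number. SRSF5, SRSF6 and SRSF10 sit above their controls in all 3 shTRMT6 libraries, SRSF2 and SRSF3 below.

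SRSF4, SRSF5 and SRSF6 are close relatives with a pair of RNA recognition motifs, known first as SRp75, SRp40 and SRp55. SRSF6 (ENSG00000124193, plus strand, chr20:43457928-43464247) had 532, 574 and 609 FPKM in shTRMT6, against 108, 175 and 182 FPKM in shControl. The lowest shTRMT6 library was thus far above the highest shControl library, with a mean of 572 ± 38.1 FPKM in shTRMT6 and 155 ± 41.3 FPKM in shControl (SD, n = 3 each). Its log2 fold change, 1.91 (SE 0.24), was the largest of the family. SRSF5 (ENSG00000100650, plus strand, chr14:69726900-69772005) had 1112, 1080 and 1183 FPKM in shTRMT6, against 304, 418 and 463 FPKM in shControl. The shTRMT6 libraries lay close together, and in shControl replicate 1 was the lowest for both genes. The log2 fold change of SRSF5 was 1.53 (SE 0.22). SRSF4 (ENSG00000116350, minus strand, chr1:29147743-29181987) was the least abundant member, with 73.9, 81.6 and 98.1 FPKM in shTRMT6, against 40.5, 45.9 and 62.9 FPKM in shControl. Its groups did not overlap but came close, with a log2 fold change of 0.77 (SE 0.25). With each library scaled to its median the log2 fold change of SRSF4 was 0.28, and it was no longer called. Nor was it called with quantile normalization (0.47) or with trends in level and length removed (0.37). SRSF4 also lost its call without any 1 of the libraries other than shControl replicate 3, at 0.63 and 0.72 without shControl replicates 1 and 2, and 0.86, 0.79 and 0.66 without shTRMT6 replicates 1, 2 and 3.

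SRSF10, also called SRp38, is known as a splicing repressor when it loses its phosphates in mitosis or heat shock and as a sequence-specific activator otherwise. SRSF10 (ENSG00000188529, minus strand, chr1:23964804-23980927) had 732, 824 and 998 FPKM in shTRMT6, against 243, 388 and 214 FPKM in shControl. All shTRMT6 libraries were above all shControl libraries, and shControl replicate 2 stood nearest to them. The log2 fold change of SRSF10 was 1.63 (SE 0.26), and 1.88 without shControl replicate 2. SRSF11, or p54, a more distant relative found in the nuclear speckles that store splicing factors, showed a smaller difference in the same direction. SRSF11 (ENSG00000116754, plus strand, chr1:70205682-70253052) had 176, 192 and 240.5 FPKM in shTRMT6, against 123, 159 and 122 FPKM in shControl. The groups did not overlap, but the log2 fold change of 0.59 (SE 0.22) was not called. With median scaling the value of SRSF11 was 0.09, and with libraries scaled to the same FPKM sum it was 0.67 and was called.

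SRSF3 and SRSF7 have a single RNA recognition motif and serve, besides splicing, as adaptors that hand mRNA to the export receptor NXF1. SRSF3 (ENSG00000112081, plus strand, chr6:36594353-36605600), the shortest member, had 695, 854 and 818 FPKM in shTRMT6, against 1716, 1606 and 1898 FPKM in shControl. It was the most abundant member in shControl, and every shTRMT6 library was below every shControl library. It averaged 789 ± 83.5 FPKM in shTRMT6 and 1740 ± 147 FPKM in shControl (SD, n = 3 each), with a log2 fold change of -1.14 (SE 0.20). SRSF7 (ENSG00000115875, minus strand, chr2:38743599-38751494), which also carries a zinc knuckle, had 539, 473 and 677 FPKM in shTRMT6, against 420, 478 and 808 FPKM in shControl. The groups overlapped fully, shControl replicate 3 was the highest of all, and the log2 fold change was 0.03 (SE 0.28). The sign of SRSF7 changed when shControl replicate 1, shControl replicate 2 or shTRMT6 replicate 3 was left out.

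SRSF2, also known as SC35, is found in nuclear speckles. SRSF2 (ENSG00000161547, minus strand, chr17:76734115-76737374) had 122, 177 and 121 FPKM in shTRMT6, against 226, 196 and 313 FPKM in shControl. The groups did not overlap, although shTRMT6 replicate 2 came near shControl replicate 2, and the log2 fold change was -0.80 (SE 0.26). SRSF2 was no longer called without shControl replicate 1, shControl replicate 3, shTRMT6 replicate 1 or shTRMT6 replicate 3, where its log2 fold change was -0.84, -0.61, -0.71 and -0.70. Its call was also lost with libraries scaled to the same FPKM sum (-0.72) and with trends in level and length removed (-0.54). In all it was called in 10 of the 16 settings tried. SRSF2 overlaps MFSD11 and AC005837.2 on the opposite strand (means over the 6 libraries 19.4 and 6.21 FPKM). Whether reads were counted by strand is not given in the sources used here.

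SRSF1, or SF2, the founding member and a known oncoprotein, and SRSF9, or SRp30c, its closest relative, had overlapping groups when each was taken alone. SRSF9 (ENSG00000111786, minus strand, chr12:120461668-120469793) had 974, 1266 and 839 FPKM in shTRMT6, against 1269, 1366 and 783 FPKM in shControl. The lowest value of both groups was in replicate 3 and the highest in replicate 2, and the log2 fold change was -0.13 (SE 0.27). SRSF9 overlaps GATC on the opposite strand (mean over the 6 libraries 90.5 FPKM), so the limit on strand given for SRSF2 holds here too. SRSF1 (ENSG00000136450, minus strand, chr17:58003360-58007346) had 268, 234 and 304 FPKM in shTRMT6, against 272, 300.1 and 413 FPKM in shControl. The groups overlapped, with a log2 fold change of -0.27 (SE 0.23). With median scaling the value of SRSF1 was -0.77 and was called lower, and with trends in level and length removed it was 0.061. An overlapping protein-coding gene on the same strand, AC015813.2 (ENSG00000266086), holds 96.7% of the 28-base words of the SRSF1 coding sequence, so reads could have gone to either. AC015813.2 had 5.58, 0 and 9.16 FPKM in shTRMT6, against 53.1, 53.02 and 112.5 FPKM in shControl. Every shTRMT6 value of that gene was below every shControl value. The 2 genes summed to 274, 234 and 314 FPKM in shTRMT6, against 325, 353 and 525 FPKM in shControl, and these sums did not overlap. They averaged 274 ± 40.0 FPKM in shTRMT6 and 401 ± 108 FPKM in shControl (SD, n = 3 each), a log2 ratio of the means of -0.55, against -0.29 for SRSF1 alone. No other member shared more than 3.79% of its words with another gene of the table. Counting every gene and pseudogene of GENCODE 29, nearly all of them outside the table, 47.9% of the words of SRSF6, 37.6% of SRSF3, 36.4% of SRSF10 and 14.8% of SRSF9 had a second source.

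The order of the members by level changed with the knockdown. In shTRMT6 the highest means were those of SRSF5 (1125 ± 52.8 FPKM), SRSF9 (1027 ± 218 FPKM), SRSF10 (851 ± 135 FPKM) and SRSF3 (789 ± 83.5 FPKM). Next came SRSF6 (572 ± 38.1 FPKM) and SRSF7 (563 ± 104 FPKM), and then SRSF1 (269 ± 35.4 FPKM), SRSF11 (203 ± 33.4 FPKM), SRSF2 (140.2 ± 32.2 FPKM) and SRSF4 (84.5 ± 12.3 FPKM). SRSF5 and SRSF9, SRSF9 and SRSF10, SRSF10 and SRSF3, SRSF6 and SRSF7, SRSF1 and SRSF11, and SRSF11 and SRSF2 were neighbours whose libraries overlapped. In shControl SRSF3 led with 1740 ± 147 FPKM, ahead of SRSF9 (1139 ± 312 FPKM), SRSF7 (568 ± 209 FPKM), SRSF5 (395 ± 81.7 FPKM), SRSF1 (328 ± 74.4 FPKM) and SRSF10 (282 ± 93.3 FPKM). SRSF2 (245 ± 60.7 FPKM), SRSF6 (155 ± 41.3 FPKM), SRSF11 (135 ± 21.4 FPKM) and SRSF4 (49.8 ± 11.7 FPKM) followed, all SDs with n = 3. Except for SRSF3 above SRSF9, SRSF2 above SRSF6 and SRSF11 above SRSF4, neighbours in the shControl order had overlapping libraries.

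By group means the sum over the family moved less than SRSF2, SRSF3, SRSF5, SRSF6 and SRSF10 each did, but not less than SRSF7 or SRSF9. The 10 genes summed to 5224, 5756 and 5888 FPKM in shTRMT6, against 4721, 5132 and 5259 FPKM in shControl. The groups overlapped, with 1 shTRMT6 library below the highest shControl library. Of the FPKM sum of all genes, the family held 0.361% ± 0.025 in shTRMT6 and 0.308% ± 0.047 in shControl (SD, n = 3 each). Within the family sum, SRSF3 held 14.01% ± 0.777 in shTRMT6 and 34.6% ± 2.84 in shControl (SD, n = 3 each). SRSF5 held 20.04% ± 1.27 in shTRMT6 and 7.80% ± 1.21 in shControl, both with n = 3. SRSF10 held 15.1% ± 1.62 in shTRMT6 and 5.60% ± 1.79 in shControl, and SRSF6 held 10.2% ± 0.185 in shTRMT6 and 3.05% ± 0.672 in shControl (SD, n = 3 each).

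**Figure D2:**
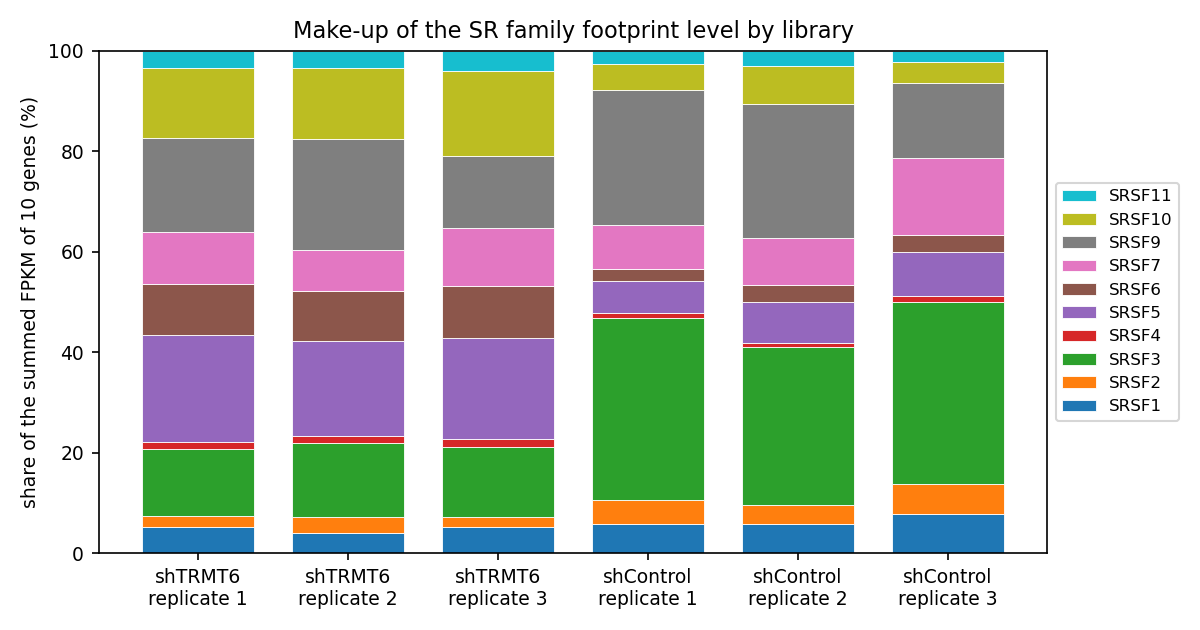
Share of the summed FPKM of the 10 SR genes that each gene held, as stacked bars per library, the 3 shTRMT6 libraries left and the 3 shControl libraries right. SRSF3 (green) takes 13.3% to 14.8% in shTRMT6 and 31.3% to 36.3% in shControl, and SRSF5, SRSF6 and SRSF10 widen in shTRMT6.

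Fold changes in these libraries fell with footprint level and grew with coding length, and SR genes are abundant and mostly short. In 10 bins of tested genes by mean level, 7 members lay in the highest, where the median log2 fold change was -0.39. In 8 bins by coding length, 6 members lay in the second shortest, with a median of -0.06. Against genes of like level and length (both trends removed from each library), SRSF6, SRSF10 and SRSF5 had log2 fold changes of 2.11, 2.03 and 1.96, and SRSF3 and SRSF2 of -0.59 and -0.54. There 3 members were called higher and 1 lower, SRSF3, with SRSF2 not called, where 13.5% of genes were called higher and 13.7% lower. With median scaling 3 members were called higher and 3 lower, where 13.1% of genes were called higher and 19.7% lower. Over the 16 settings tried, the deposited scale included, the log2 fold change ran between 1.42 and 2.11 for SRSF6, between 1.13 and 2.03 for SRSF10 and between 1.03 and 1.96 for SRSF5. It ran between -1.64 and -0.59 for SRSF3 and between -1.29 and -0.54 for SRSF2. Footprints on mRNAs encoded by mitochondrial DNA, which enter every FPKM through the library total, summed to 122566 to 214988 FPKM in shTRMT6 and 11558 to 35151 FPKM in shControl. With libraries scaled to the same FPKM sum the log2 fold changes of SRSF6 and SRSF3 were 1.99 and -1.06. That sum still includes the mitochondrial values, so this scaling does not take them out, and their effect on the members was not tested.

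**Figure D3:**
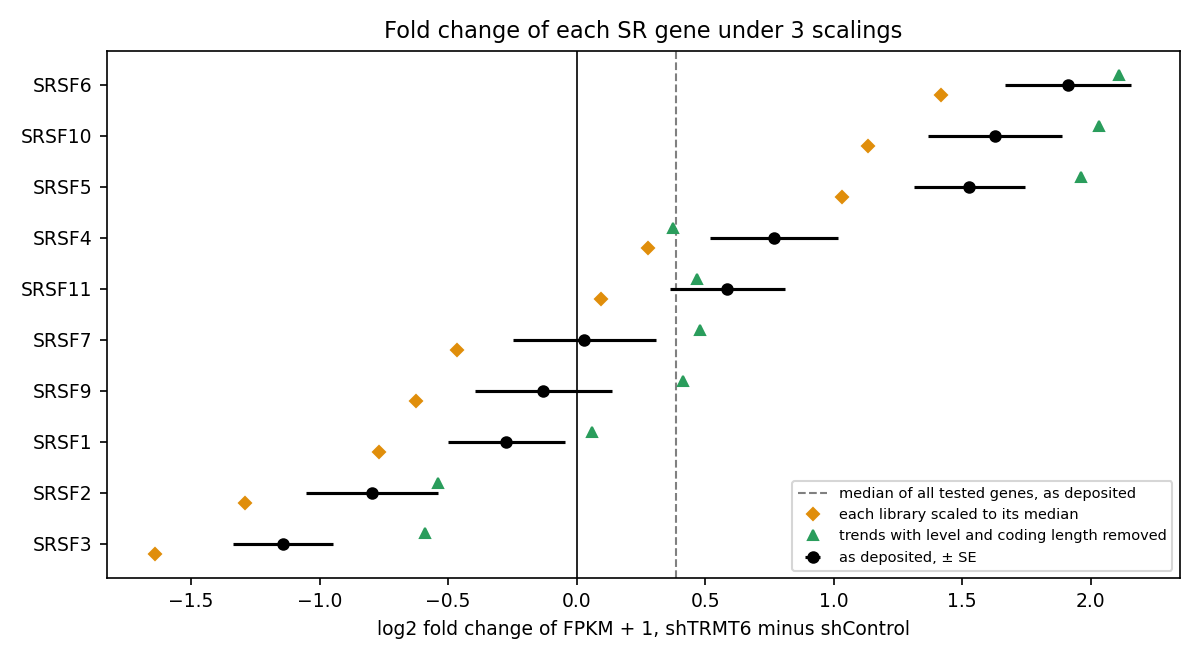
Log2 fold change of FPKM + 1, shTRMT6 minus shControl, of each SR gene on the deposited scale (black points with SE bars), with each library scaled to its median (orange) and with trends with level and coding length removed (green); the dashed line is the median of all tested genes on the deposited scale, 0.39. SRSF6, SRSF10 and SRSF5 stay above 1 and SRSF3 and SRSF2 below -0.5 under all 3.

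The control libraries differed among themselves for these genes. Among the controls SRSF9, SRSF10 and SRSF11 peaked in shControl replicate 2 and the other 7 members in shControl replicate 3, against 39.9% and 31.9% of tested genes. For SRSF10, shControl replicate 2 was 0.76 above the mean of the other controls on the log2 scale, and for SRSF2 0.44 below it (-0.44). The median over members was 0.01, against 0.16 over tested genes. For shControl replicate 3 the median over members was 0.39, against -0.16 over tested genes, with 0.85 for SRSF7 and -0.75 for SRSF9. Over the 6 libraries the log2 levels of SRSF5 and SRSF6 followed each other most closely among the members (Pearson's r = 0.998, n = 6), also within the controls, where replicate 1 was low for both. The r was 0.964 for SRSF10 and SRSF11 and 0.901 for SRSF2 and SRSF3. SRSF3 ran opposite to SRSF5 (r = -0.943), and SRSF7 opposite to SRSF9 (r = -0.933). These points share the 2 groups and their libraries, so the values describe the 6 libraries only. Likeness to the mean of the members after centring was ranked among other genes with a symbol and a mean FPKM above the tested median. There ZNF106, PARP12, LARP7, SPOUT1 and BIRC2 came first, with r of 0.991, 0.991, 0.991, 0.989 and 0.988 (n = 6 libraries). That mean joins members that ran opposite, such as SRSF3 and SRSF5, so likeness to it is not likeness to each member.

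Of the listed kinases CLK1, CLK2, CLK4, SRPK2 and PRPF4B were called higher, and CLK3, SRPK1 and DYRK1A were not called. The import receptor TNPO3 and the phosphatase subunit PPP1CA were called lower. PPP1CC was called lower near the threshold, and the other phosphatase subunits PPP1CB and PPP1R8 were not called. Of 14 genes listed for kinases, phosphatase subunits and nuclear import 13 were tested. Of these 5 rose, 3 fell and 5 did not pass (median log2 fold change 0.36, against 0.39 over all tested genes, of which 26.5% rose and 9.04% fell). CLK4 had 124, 119 and 133 FPKM in shTRMT6, against 22.7, 24.5 and 14.8 FPKM in shControl (log2 fold change 2.58, SE 0.25, limma adjusted p = 0.000646). CLK1 had 197.5, 199 and 180 FPKM in shTRMT6, against 35.1, 77.2 and 45.1 FPKM in shControl (log2 fold change 1.93, SE 0.29, limma adjusted p = 0.00192). CLK2 had 53.1, 56.1 and 62.98 FPKM in shTRMT6, against 7.41, 22.7 and 13.1 FPKM in shControl (log2 fold change 2.04, limma adjusted p = 0.00359). All 3 rose with groups that did not overlap, and their highest control value was in shControl replicate 2, as it was for CLK3. CLK3, at 67.9, 52.03 and 87.5 FPKM in shTRMT6 and 22.5, 63.4 and 42.4 FPKM in shControl, did not pass (0.77, limma adjusted p = 0.133), but it passed without shControl replicate 2 (1.11, limma adjusted p = 0.0373). Leaving out a gene's highest control raises its fold change by construction, so nothing is read from that pass.

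Of the cytoplasmic kinases SRPK2 rose and SRPK1 did not pass. SRPK2 had 110, 93.9 and 95.1 FPKM in shTRMT6, against 27.4, 42.5 and 44.01 FPKM in shControl (log2 fold change 1.39, limma adjusted p = 0.0039). SRPK1 had 173, 158 and 181 FPKM in shTRMT6, against 105, 112 and 205 FPKM in shControl (0.34, limma adjusted p = 0.354). Without shControl replicate 3, the control library above the others for SRPK1, its value was 0.65 (limma adjusted p = 0.0139). As for CLK3, that rise follows from leaving out the highest control, and nothing is read from it. PRPF4B, a kinase of the spliceosome, rose at 1.64 (limma adjusted p = 0.00637). TNPO3, the transportin that carries phosphorylated SR proteins into the nucleus, had 34.05, 38.7 and 36.8 FPKM in shTRMT6, against 77.3, 72.6 and 73.4 FPKM in shControl. TNPO3 fell by 1.01 on the log2 scale (limma adjusted p = 0.00714), with tight groups. PPP1CA, a catalytic subunit of protein phosphatase 1, fell by 1.18 (limma adjusted p = 0.00448), and PPP1CC fell by 0.56 (limma adjusted p = 0.0471), a call lost in each fit without a library except that without shControl replicate 3. The call of PPP1CC was also lost with quantile normalization (-0.29, limma adjusted p = 0.213), with trends removed (-0.27, limma adjusted p = 0.205) and with the replicate number as a block (limma adjusted p = 0.0638). PPP1CB, a further catalytic subunit, went the other way at 0.36 with groups that did not overlap, but did not pass (limma adjusted p = 0.19). PPP1R8 and the kinase DYRK1A did not pass either, at -0.27 and 0.16 (limma adjusted p = 0.389 and 0.662).

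Of 41 listed genes for other proteins with RS domains 40 were tested. Of these 19 rose, 2 fell (U2AF1 and RNPS1, named after their values were seen) and 19 stayed short of the threshold, where 26.5% of all tested genes rose and 9.04% fell. Their log2 fold changes had a median of 0.90, against 0.39 over all tested genes. With median scaling that median was 0.42, and 15 rose and 3 fell, where 13.1% of all tested genes rose and 19.7% fell. With trends in level and length removed it was 0.40, and 15 rose and 2 fell, where 13.5% of all genes rose and 13.7% fell. Without shControl replicate 3, which was the highest control for 24 of the 40, 29 rose and 2 fell, where 3270 of all genes rose and 1428 fell. For those 24 genes leaving it out raises the fold change by construction, so nothing is read from the 29. RSRP1, an arginine and serine rich protein of little known function, had 222, 249 and 206 FPKM in shTRMT6, against 28, 48.8 and 12.2 FPKM in shControl (log2 fold change 3.08, SE 0.41, limma adjusted p = 0.00131). The cyclin L genes CCNL2 and CCNL1, whose proteins pair with splicing-linked CDK11, had log2 fold changes of 2.70 and 2.32 (limma adjusted p = 0.000832 and 0.00114). PNN, which encodes the speckle and exon junction protein pinin, had 437, 410.4 and 433 FPKM in shTRMT6, against 54.1, 111 and 76.01 FPKM in shControl (2.45, limma adjusted p = 0.000751). ARGLU1, a splicing modulator, had a log2 fold change of 2.06 (limma adjusted p = 0.00142). The SR-like splicing activators TRA2A and TRA2B did not pass, at -0.18 and -0.05 (limma adjusted p = 0.608 and 0.863), and their signs turned without shControl replicate 3 (0.060 and 0.079). SRSF8, a retrogene relative of SRSF2, was low, at 8.5, 15.9 and 15.02 FPKM in shTRMT6 and 13.7, 4.98 and 12.1 FPKM in shControl, and did not pass (0.38, limma adjusted p = 0.488).

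**Figure D4:**
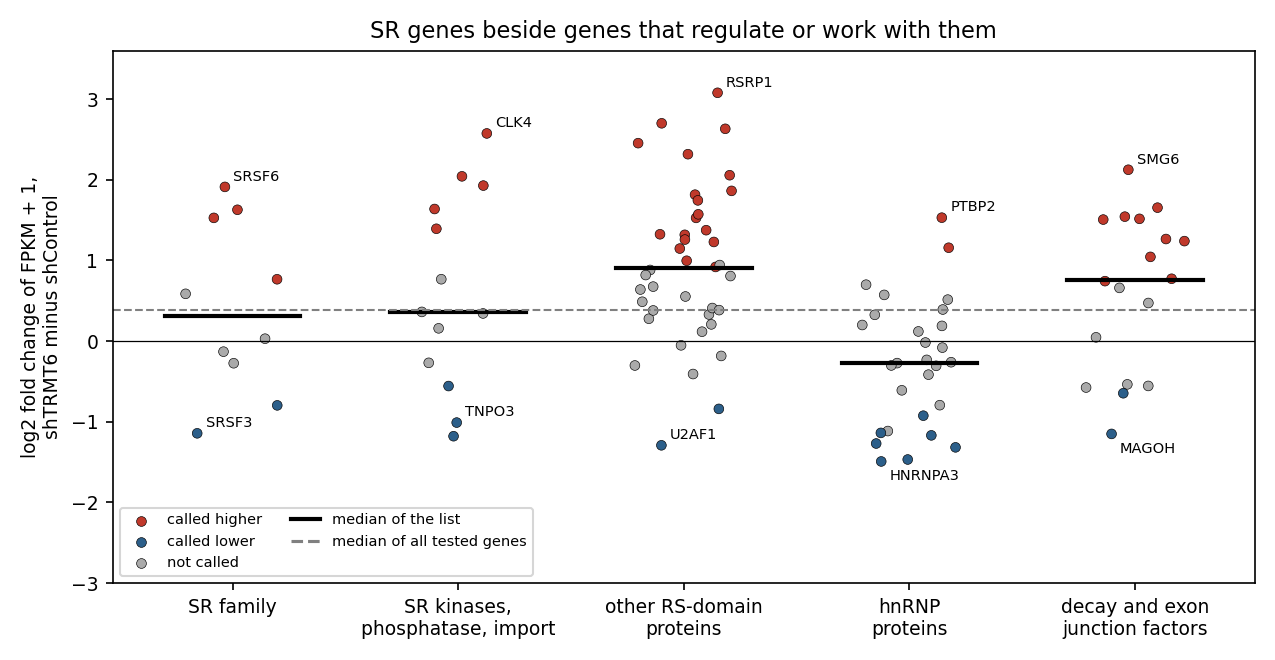
Log2 fold change of FPKM + 1, shTRMT6 minus shControl, of the 10 SR genes and of the tested genes of 4 lists, 1 point a gene, red where called higher, blue where called lower (limma, adjusted p under 0.05) and grey otherwise. Bars are list medians (0.31, 0.36, 0.90, -0.27 and 0.76 from left to right) and the dashed line is the median of all tested genes, 0.39.

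The hnRNP proteins, which often oppose SR proteins at the same exons, lay lower than the SR family in their median. All 28 listed genes were tested, of which 2 rose, 7 fell and 19 missed the threshold, where 26.5% of all tested genes rose and 9.04% fell. The median of their log2 fold changes was -0.27, against 0.39 over all tested genes. Fold changes fell with level in these libraries, so that background is not one of like level. With trends in level and length removed the list median was -0.36, against -0.06 over all genes. There 3 rose and 8 fell, where 13.5% of all genes rose and 13.7% fell. PTBP3 had 54.3, 52.2 and 45.8 FPKM in shTRMT6, against 120, 125 and 125 FPKM in shControl (-1.27, limma adjusted p = 0.00255). HNRNPAB, HNRNPD and HNRNPA3 had log2 fold changes of -0.92, -1.32 and -1.49 (limma adjusted p = 0.00628, 0.00812 and 0.00918). PTBP2, whose mRNA is known to be sent to decay by skipping of an exon under PTBP1, rose, with 44.3, 27.0 and 37.6 FPKM in shTRMT6, against 11.3, 9.51 and 14.7 FPKM in shControl (1.53, limma adjusted p = 0.00486). For 26 of the 28 genes shControl replicate 3 was the highest control, and their summed FPKM was 8828 to 10500.3 in shTRMT6 and 8390, 8095 and 18860.1 in shControl replicates 1, 2 and 3. Without that library 9 rose and 8 fell, where 3270 of all genes rose and 1428 fell. For those 26 genes leaving it out raises the fold change by construction, so nothing is read from the 9.

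Factors of nonsense-mediated decay and of the exon junction complex, which remove SR transcripts with an early stop, differed within their list. Of 18 tested 10 rose, 2 fell and 6 missed the threshold, where 26.5% of all tested genes rose and 9.04% fell. The median of their log2 fold changes was 0.76, against 0.39 over all tested genes. SMG6, the endonuclease of the pathway, had 38.1, 18.9 and 19.4 FPKM in shTRMT6, against 2.48, 4.98 and 8.18 FPKM in shControl (2.12, SE 0.42, limma adjusted p = 0.00563). SMG1, the kinase that phosphorylates UPF1, had 102, 70.8 and 103 FPKM in shTRMT6, against 24.2, 55.3 and 16.2 FPKM in shControl (1.65, limma adjusted p = 0.0122). Genes for CASC3, DHX34 and UPF2 had log2 fold changes of 1.51, 1.54 and 1.52 (limma adjusted p = 0.00209, 0.00265 and 0.00629). MAGOH, of the exon junction core, fell by 1.15 (limma adjusted p = 0.00308). The helicase UPF1 did not pass (0.66, limma adjusted p = 0.243), and it passed without shControl replicate 3 (1.14, limma adjusted p = 0.0177). That library held the highest control value of UPF1, so leaving it out raises the fold change by construction, and nothing is read from the pass. With trends in level and length removed 3 rose and 2 fell, SMG1, DHX34 and UPF2 no longer passing, where 13.5% of all genes rose and 13.7% fell. With median scaling 5 rose and 4 fell, where 13.1% of all tested genes rose and 19.7% fell.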

How the data were processed

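Footprints were measured in 3 RKO libraries with a TRMT6 hairpin and 3 with a control hairpin. The authors deposited FPKM per gene, per the file headers. Per the submitters' processing notes, RSEM, STAR and fastp were used, with no version given. Build, annotation, strand setting and the handling of reads shared by near-identical genes: not given in the sources used here. Columns named NC and SH, numbered 1 to 3, were read as shControl and shTRMT6 replicates, which no label spells out; 0 columns were left unassigned. Symbols were found for 19705 of 20289 identifiers. GENCODE 29 (GRCh38), which may differ from the authors' annotation, gave positions, transcripts and coding sequences.

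limma 3.58.1 (R 4.3.3) was fitted to log2(FPKM + 1) on group alone, with a variance trend on level. It covered the 11566 genes that reached 1 FPKM in 3 or more libraries, and p-values were adjusted by Benjamini-Hochberg over all of them. Fold changes understate those of low genes. The fit was tested on simulated data with independent noise for each gene, which does not cover libraries that shift over many genes at once. For reads per library, low FPKM times coding length was read as multiples of 1 read; 69.5% to 74.6% of low values came within 0.1 of a whole number. Words of 28 bases of each member's coding sequence were searched in all other genes' transcripts. The members, the 4 lists of related genes and the tests were chosen with earlier results of these data known. Named were TRMT6, all members, and 12 set regulators and relatives. Also named were up to 5 further genes a list with the smallest adjusted p and non-overlapping groups. The 5 genes most like the members' mean were taken among tested genes with a symbol and a mean FPKM above the median. AC015813.2, U2AF1, RNPS1, PPP1CB, PPP1R8 and DYRK1A were named after their values were seen. Alternatives were other scalings, filters and pseudocounts, removal of trends with level and length (splines with 5 degrees of freedom), the replicate number as a block, and leaving out each library. Python 3.11.15, pandas 2.3.3, numpy 2.4.6 and matplotlib 3.10.9 were used.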

Additional observations from a re-analysis of the deposited data

How the results depend on the processing

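Of the values of single members under 15 alternatives, 125 of 150 kept their direction and side of the threshold. Another 14 lost a call, 2 gained one and 9 changed sign. The lost calls were all in SRSF2, called in 10 of 16 settings, and SRSF4, called in 8 of 16. Other filters and the replicate block cannot change a member's log2 fold change, so its direction there was fixed in advance. All 9 changes of sign were in SRSF1, SRSF7 and SRSF9, which were not called on the deposited scale. These counts describe members chosen on the same values and support none of them. With median scaling 1520 genes were called higher and 2275 lower, the members' median log2 fold change was -0.19, SRSF7 had -0.47, SRPK1 -0.15 and SRSF8 -0.071, 1 hnRNP gene rose, and 5 decay and exon junction genes rose and 4 fell. With the same FPKM sum 1 member was called lower, as SRSF2 lost its call, and TRA2B had 0.027. With quantile normalization 1602 genes were called higher and 1700 lower, 6 decay genes rose, and SRSF9, TRA2B and SRSF8 had 0.39, 0.21 and -0.27. With trends removed 1535 genes were called higher, 1 member was called lower, 3 decay genes rose, and SRSF1, SRSF9, TRA2B and UPF1 had 0.061, 0.41, 0.27 and -0.14; for these 4 scalings the cause was not tested. Leaving out 1 library gave 1828 to 3270 genes called higher and 587 to 1428 lower, 3 to 4 members higher and 1 to 2 lower, 16 to 29 other RS-domain genes higher and 1 to 2 lower, 1 to 9 hnRNP genes higher and 4 to 8 lower, and 1 to 2 decay genes lower. In these fits SRSF7 had -0.16, -0.06 and -0.11 without shControl replicate 1, shControl replicate 2 and shTRMT6 replicate 3, SRSF9 0.021 and 0.0045 without shControl replicate 2 and shTRMT6 replicate 3, SRSF8 -0.020 without shControl replicate 2, and TRA2A and TRA2B 0.060 and 0.079 without shControl replicate 3. Over the 6 fits SRSF7 ranged over -0.16 to 0.31, SRSF9 -0.38 to 0.021, TRA2A -0.32 to 0.060, TRA2B -0.12 to 0.079 and SRSF8 -0.020 to 0.65. Replicate numbers did not pair the libraries: deviations from the group means correlated at 0.012, 0.0134 and 0.102 for numbers 1, 2 and 3, and not every library correlated best with its own number. With the replicate number as a block 3146 genes were called higher and 1065 lower, 4 members higher and 2 lower, and PPP1CC lost its call. Depth limits the low genes of the lists, such as SMG6 and SRSF8, more than the members.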
